A study of Mus musculus with 6 samples.

Results

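The genes described here encode the subunits of the proteasome, measured by RNA-seq in the substantia nigra (SN). MitoPark mice, a model of mitochondrial dysfunction in dopaminergic neurons, were compared with their littermate controls. A gene was taken as a member when its symbol was Psma, Psmb, Psmc, Psmd or Psme followed only by digits. Its mean over the 6 mice also had to be above 1 CPM, here counts scaled to the total of each mouse. Levels of genes in later paragraphs are CPM scaled by TMM to a common library size. Psmb8 and Psmb9, the interferon-inducible subunits, were left out by the rule. This gave 39 members among the 24054 genes of the table, 15 of the core particle (Psma and Psmb) and 24 of the regulatory particles (Psmc, Psmd and Psme). All 39 also passed the filter on low counts and were among the 14568 genes tested. Psma8 (mean of 0.199 CPM) and Psmb11 (0.444 CPM), both core genes, fell under the minimum. Psmc3ip (1.88 CPM) and Psme2b (1.25 CPM) carry letters after the digits and are not members.

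Each group had 3 mice, aged 16 to 17 weeks by the labels, with no treatment in either group. MitoPark mice were Dat+/Cre with TFAM LoxP/LoxP, so Tfam, the gene of mitochondrial transcription factor A, is deleted in cells that express the dopamine transporter, and Cre takes the place of 1 copy of the transporter gene. Littermate controls were TFAM+/LoxP with Dat+/+, so they carry a floxed Tfam allele without Cre. The methods call the controls C57BL/6 mice and describe the MitoParks by genotype, not by strain. Brain is the tissue on the labels and the SN that of the methods, and no RNA batches are named. By the methods, controls could be born into litters of the MitoPark colony or of the parental strain, and which mouse came from which is not given. Values of individual mice are given in the order 1, 2, 3 within a group.

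The proteasome is the protease that breaks down ubiquitin-tagged proteins in the cytosol and nucleus. Its core particle is a barrel of alpha and beta rings, and the active sites lie inside the barrel on the beta subunits of Psmb5, Psmb6 and Psmb7. The regulatory particle sits at the end of the barrel, where its lid removes ubiquitin chains and its ring of ATPases unfolds the substrate and feeds it inward. Loss of proteasome activity has long been studied in Parkinson's disease, where misfolded proteins gather in dopaminergic neurons, and the study measured this activity in cultured dopaminergic cells under mitochondrial stress. The comparison below asks what the mRNAs of the subunits did in the SN of mice with mitochondrial dysfunction.

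Expected counts summed to between 8140777 and 10528602 per mouse, and TMM factors lay between 0.9765 and 1.018. The targeted gene itself, Tfam, measured 40.3, 44.4 and 45.5 CPM in littermate controls against 32.7, 33.1 and 33.2 CPM in MitoParks, so the groups did not overlap. Its log2 fold change was -0.40 (SE 0.11), with an unadjusted p = 0.00565 in edgeR's quasi-likelihood test and, after Benjamini-Hochberg adjustment, an adjusted p of 0.999. All 10 dopaminergic neuron markers looked up, among them Th and Slc6a3, were listed, and 9 were above 0 in every mouse, Pitx3 being at 0 in MitoPark 1. All 10 had log2 fold changes below 0, 2 of them with an unadjusted p below 0.05 (edgeR), where 0.446% of all genes were lower with such a p. Without littermate control 3, in a fit added after the data were seen, 5 of the 9 still tested were below 0 and 4 above, and 1 had an unadjusted p below 0.05. Their summed level ran from 454 to 1482 CPM in littermate controls and from 306 to 556 CPM in MitoParks, with littermate control 3 at the top and the other controls at 454 and 543 CPM. With all mice, the 2 markers were Slc6a3 (log2 fold change -2.30, unadjusted p = 0.00895, edgeR) and Foxa1 (-0.84, unadjusted p = 0.0488, edgeR). In bulk tissue, fewer cells of a type and less RNA per cell cannot be told apart. Slc6a3 is the transporter gene that has 1 copy replaced by Cre in MitoParks, and for it this cannot be told apart from them either.

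No difference in proteasome mRNA between MitoParks and littermate controls passed a test, and the levels of the groups overlapped for every member. Summed over the 15 core genes, the level was 1132, 1253 and 1164 CPM in littermate controls and 1250, 1141 and 1148 CPM in MitoParks. Summed over the 24 regulatory genes, it was 2308, 2642 and 2532 CPM in littermate controls and 2502, 2549 and 2385 CPM in MitoParks. The groups overlapped for both sums. The core sum averaged 1183 ± 62.8 CPM (SD, n = 3) in littermate controls and 1179 ± 60.9 CPM (SD, n = 3) in MitoParks, and the regulatory sum 2494 ± 170.3 CPM and 2478 ± 84.4 CPM. The regulatory sum was 2.11 ± 0.0685 times the core sum in littermate controls and 2.105 ± 0.118 times in MitoParks (SD, n = 3), on the scale of CPM not corrected for length. The members together took 0.366% ± 0.0219 of all counts in littermate controls and 0.367% ± 0.00972 in MitoParks.

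**Figure D1:**
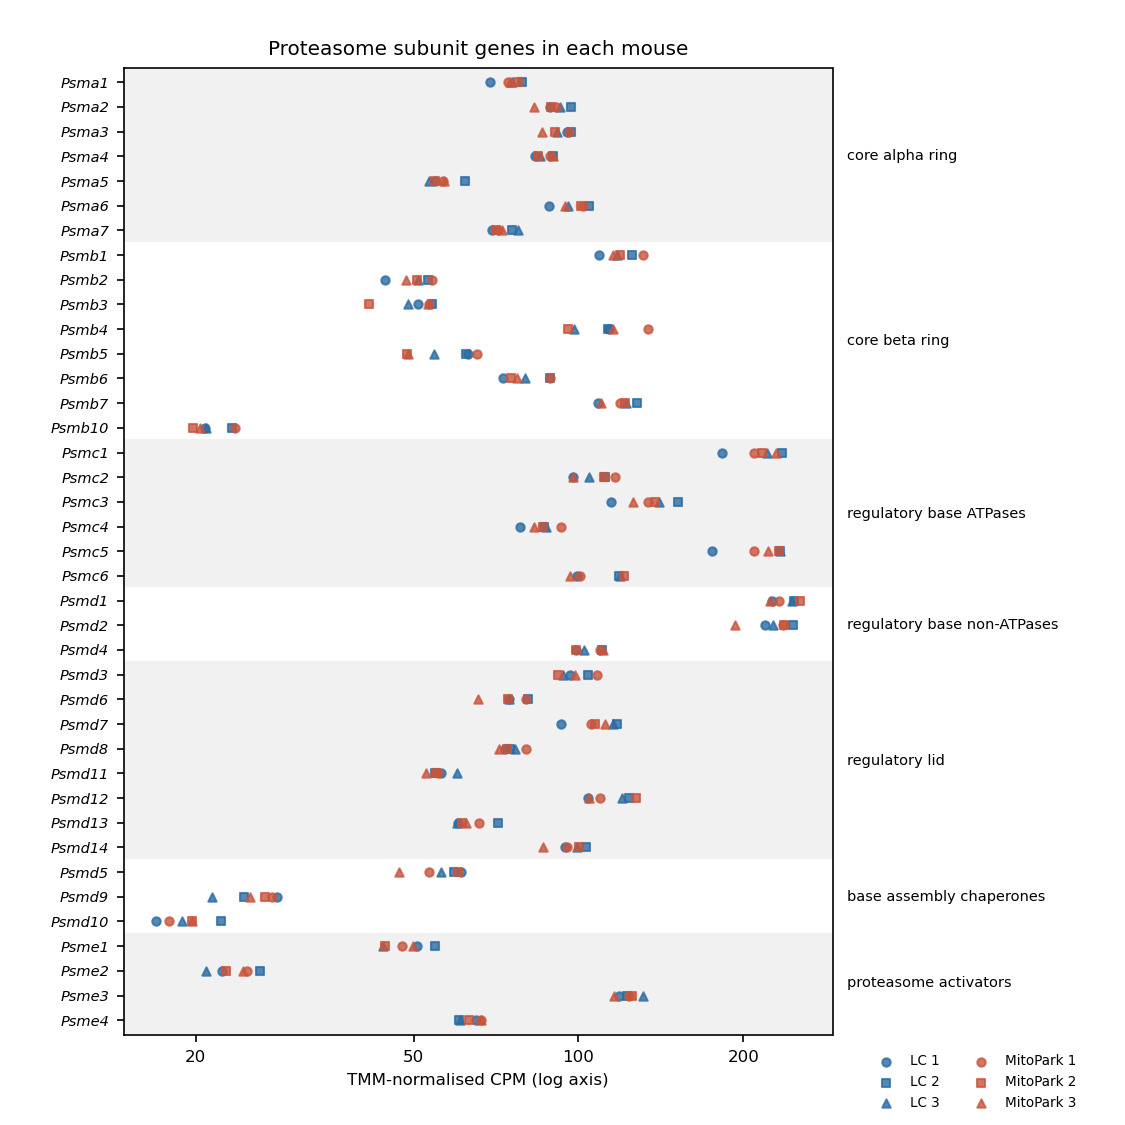
TMM-normalised CPM (log axis) of the 39 proteasome subunit genes in each of the 3 littermate controls (LC, blue) and 3 MitoParks (red), grouped by role. Blue and red points overlap for every gene, and the levels run from about 19.2 CPM for Psmd10 to 238 CPM for Psmd1.

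Of the 39 members, 0 had an unadjusted p below 0.05 in edgeR's quasi-likelihood test, against 1.11% of all genes tested (0.659% higher and 0.446% lower in MitoParks). DESeq2's Wald test and limma-voom also gave 0. With a change of more than 1.5-fold asked for as well, the pair of cutoffs used in the methods, 0.577% of all genes passed (0.199% lower in MitoParks) and 0 members, and 0 had an adjusted p below 0.05, as for all genes tested (0.0%). The smallest unadjusted p of any member was 0.301, for Psmd5. The groups did not overlap for 4.71% of all genes tested (2.43% higher and 2.28% lower in MitoParks) and for 0 of the 39 members. Log2 fold changes were above 0 for 17 members and below 0 for 22, where 48.6% of all genes were above 0. The median was -0.02 for the core genes, -0.02 for the regulatory genes and -0.005 over all genes tested, and without littermate control 2 it was 0.051 for the core and 0.054 for the regulatory genes.

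The size of a difference in bulk tissue that these mice still allow was bounded by the 95% intervals of the fit. They bound the mean over all cells of the sample. A change within dopaminergic neurons alone, or in proteasome activity, was not measured. All 39 intervals lay between log2 fold changes of -0.46 and 0.40, which is 0.725-fold to 1.32-fold, and so inside 1.5-fold in both directions (0.585 on the log2 scale). Such an interval was reached by 66.5% of all genes tested and by 91.6% of the 7676 genes whose mean level lay in the range of the members, so it is common at this depth. The mice of the whole set differed by a median coefficient of variation (CV) of 7.003% over the members, from 3.45% for Psma4 to 13.0% for Psmb5, and by a median of 10.1% over the 7676 genes.

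**Figure D2:**
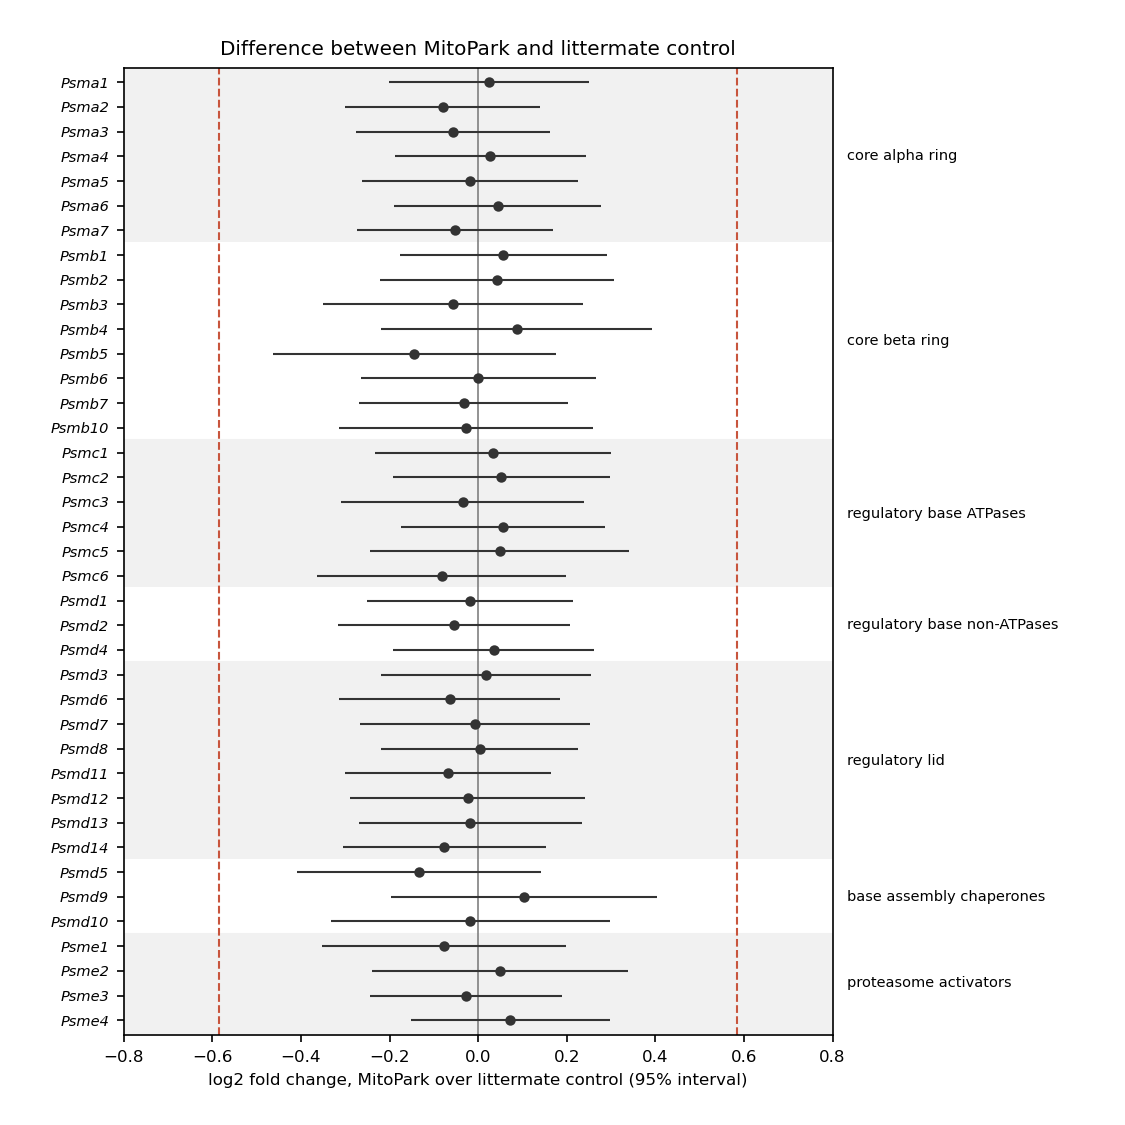
Log2 fold change of each proteasome subunit gene, MitoPark over littermate control, with its 95% interval from edgeR's quasi-likelihood fit (n = 3 mice per group). The dashed lines mark 1.5-fold in both directions, and all 39 intervals include 0 and lie between the lines.

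The 7 alpha subunits form the outer rings of the barrel and the gate through which substrates enter. Their mean levels ran from 56.4 CPM for Psma5 to 97.8 CPM for Psma6, and their log2 fold changes from -0.08 for Psma2 to 0.04 for Psma6, with 3 above 0 and 4 below. Psma2, the alpha subunit with the smallest p, measured 88.5, 97.1 and 92.5 CPM in littermate controls and 90.8, 89.2 and 83.1 CPM in MitoParks. Only MitoPark 3 lay below the range of the littermate controls. The log2 fold change was -0.08 (SE 0.10, 95% interval -0.30 to 0.14, unadjusted p = 0.433, edgeR). Psma3 and Psma7 were at -0.06 and -0.05, Psma5 at -0.02, Psma1 at 0.02 and Psma4 at 0.03.

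The beta subunits line the chamber, and Psmb5 carries its chymotrypsin-like, Psmb7 its trypsin-like and Psmb6 its caspase-like activity. Psmb5 had the largest log2 fold change in size of all members. It measured 62.8, 62.4 and 54.5 CPM in littermate controls and 65.3, 48.7 and 48.8 CPM in MitoParks. MitoParks 2 and 3 were below every littermate control and MitoPark 1 was above them all. The log2 fold change was -0.14 (SE 0.14, 95% interval -0.46 to 0.18, unadjusted p = 0.337, edgeR), and it was -0.29 without MitoPark 1 (unadjusted p = 0.0539) and between -0.21 and -0.06 with each other mouse left out.

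Psmb6 measured 72.7, 88.8 and 79.8 CPM in littermate controls and 88.9, 75.3 and 77.3 CPM in MitoParks, with means of 80.4 ± 8.07 and 80.5 ± 7.31 CPM (SD, n = 3). The 95% interval of its log2 fold change was -0.26 to 0.27. Psmb7 was at 109, 128 and 122 CPM and at 119, 122 and 110 CPM, a log2 fold change of -0.03 (95% interval -0.27 to 0.20). The MitoParks lay inside the range of the controls for Psmb7, and for Psmb6 all but MitoPark 1, which was level with the highest control. Psmb4, a structural beta subunit, measured 114, 113 and 98.2 CPM in littermate controls and 134, 95.6 and 116 CPM in MitoParks. Its highest and its lowest value were both in MitoParks, and the log2 fold change was 0.09 (95% interval -0.22 to 0.39, unadjusted p = 0.54, edgeR). The other structural members, Psmb1, Psmb2 and Psmb3, were at 0.06, 0.04 and -0.06.

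Immune signals can replace the active beta subunits by inducible ones, Psmb5 by Psmb8, Psmb6 by Psmb9 and Psmb7 by Psmb10. Psmb10, the member of this kind, measured 20.8, 23.3 and 20.9 CPM in littermate controls and 23.6, 19.8 and 20.4 CPM in MitoParks, and no group stood apart. Its log2 fold change was -0.03 (95% interval -0.31 to 0.26). Per kilobase of transcript, Psmb10 was at 16.4 CPM and had the lowest level of the core genes, while Psmb7, at 102 CPM per kilobase, had the highest. With the median length of the coding transcripts in place of the principal one, Psmb10 was still the lowest and Psma3 (108 CPM per kilobase) the highest. The ratio of Psmb7 to Psmb10 per kilobase was 5.90, 6.22 and 6.60 in littermate controls and 5.69, 6.95 and 6.10 in MitoParks.

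Outside the rule, Psmb8 was covered by 34, 32 and 25 counts in the controls against 27, 40 and 39 in the MitoParks. Its log2 fold change was 0.35 (95% interval -0.26 to 0.95, unadjusted p = 0.227, edgeR), an interval that does not exclude 1.5-fold. Psmb9 had between 6 and 13 counts per mouse in both groups, a log2 fold change of 0.13 (95% interval -0.96 to 1.22). The ratio of Psmb5 to Psmb8 per kilobase was 30.0, 37.2 and 40.4 in littermate controls and 35.9, 21.8 and 19.97 in MitoParks, with MitoParks 2 and 3 below every littermate control and MitoPark 1 among them. The ratio rests on the 25 to 40 counts of Psmb8 and was not tested, and its mean over the 6 mice was 30.9 with the principal transcripts but 18.8 with the median coding length.

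The base of the regulatory particle holds the 6 ATPases, Psmc1 to Psmc6, which unfold the substrate. Psmc5 and Psmc1 had the most mRNA among them, with means of 217.7 and 215.8 CPM. Per kilobase they were at 165 and 136 CPM and the other 4 ATPases between 48.8 and 82.0 CPM. Psmc5 measured 176, 233 and 233 CPM in littermate controls and 209, 233 and 222 CPM in MitoParks, so that the lowest mouse was littermate control 1 and the MitoParks lay inside the range of the controls. Psmc2 had a mean of 106.5 CPM and a log2 fold change of 0.05. The log2 fold changes of the 6 ran from -0.08 for Psmc6 to 0.06 for Psmc4, with 4 above 0 and 2 below, and the smallest unadjusted p was 0.529 (Psmc6, edgeR).

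Psmd1 and Psmd2 are the large scaffold subunits of the base, and Psmd4 binds ubiquitin chains. Psmd1 had the highest CPM of all members, 239.7 ± 12.1 CPM in littermate controls and 237 ± 15.6 CPM in MitoParks (SD, n = 3). Psmd2 was at 219, 246 and 227 CPM and at 236, 237 and 193 CPM, with MitoPark 3 below the other 5 mice, and had a log2 fold change of -0.05 (95% interval -0.32 to 0.21). Psmd4 was at 99.0, 110 and 102 CPM and at 109, 99.1 and 111 CPM, with a log2 fold change of 0.03 (95% interval -0.19 to 0.26).

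The lid includes Psmd14, the metalloprotease that cuts ubiquitin chains off the substrate. Psmd14 measured 94.7, 103 and 99.2 CPM in littermate controls and 95.3, 100 and 86.3 CPM in MitoParks. MitoPark 3 was the lowest mouse and the other MitoParks lay among the controls, with a log2 fold change of -0.08 (SE 0.10, 95% interval -0.31 to 0.15, unadjusted p = 0.476, edgeR). The 8 lid genes had log2 fold changes from -0.08 to 0.02, with 2 above 0 (Psmd3 and Psmd8) and 6 below. Psmd3 was at 0.02, Psmd8 at 0.0033, Psmd6 at -0.06 and Psmd13 at -0.02. Their mean levels ran from 55.6 CPM for Psmd11 to 114.9 CPM for Psmd12.

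Psmd5, Psmd9 and Psmd10 share the naming but act as chaperones that help assemble the base and are not part of the finished particle. Psmd5 and Psmd9 had the smallest p-values of the regulatory genes, and neither passed. Psmd5 measured 60.9, 59.4 and 56.0 CPM in littermate controls and 53.3, 60.4 and 46.9 CPM in MitoParks. MitoParks 1 and 3 were below every littermate control and MitoPark 2 was among them, with a log2 fold change of -0.13 (SE 0.12, 95% interval -0.41 to 0.14, unadjusted p = 0.301, edgeR). Psmd9 was at 28.2, 24.5 and 21.4 CPM and at 27.5, 26.8 and 25.2 CPM, a log2 fold change of 0.10 (95% interval -0.20 to 0.40, unadjusted p = 0.459, edgeR). All 3 MitoParks lay within the range of the controls for Psmd9. Psmd10 had the lowest CPM of all members, not corrected for length, 19.3 ± 2.68 CPM in littermate controls and 19.1 ± 1.04 CPM in MitoParks (SD, n = 3).

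The Psme genes encode activators that can cap the core particle in place of the regulatory particle. Psme1 and Psme2 form the interferon-inducible activator, Psme3 the nuclear one, and Psme4 a single large chain. Psme1 measured 50.8, 54.7 and 44.0 CPM in littermate controls and 47.5, 44.3 and 49.9 CPM in MitoParks (log2 fold change -0.08, 95% interval -0.35 to 0.20). Psme2 was at 22.4, 26.2 and 20.9 CPM and at 24.9, 22.7 and 24.4 CPM (0.05, 95% interval -0.24 to 0.34). For both genes the MitoParks lay inside the range of the controls. The expected counts of Psme2 were not whole in any of the 6 mice, which is how RSEM writes reads split between genes, and Psme2b is a near-identical copy, so its level is uncertain. Psme3 was at 119, 123 and 131 CPM and at 124, 125 and 116 CPM (-0.03, 95% interval -0.24 to 0.19). Psme4 was at 64.9, 60.5 and 60.7 CPM and at 66.4, 63.0 and 66.3 CPM (0.07, 95% interval -0.15 to 0.30), with 2 MitoParks above every control. Per kilobase of its long principal transcript, Psme4 was the lowest regulatory gene at 9.81 CPM and Psmc5, at 165 CPM, the highest. Both ends turned with the median length of the coding transcripts, where Psme4 was at 96.9 CPM per kilobase, Psmd10 was the lowest at 13.6 and Psmd2 the highest at 344.

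Single mice stood high or low for many members at once, in both groups. Littermate control 1 was the lowest of the 6 mice for 16 of the 39 members and MitoPark 3 for 12. Littermate control 2 was the highest for 18 and MitoPark 1 for 11. These counts of lowest and highest mice were not made over all genes tested. Littermate control 2 was above the mean of the 6 mice for 15 of 15 core and 19 of 24 regulatory genes, where it was above it for 52.5% of all genes tested. MitoPark 1 was above the mean for 13 of 15 core genes, including all 8 of the beta ring, but for 13 of 24 regulatory genes. The particles parted in littermate control 3 (5 of 15 core and 14 of 24 regulatory genes above the mean) and in MitoPark 2 (4 of 15 and 14 of 24). Littermate control 1 was below the mean for all 6 base ATPases and for 7 of 8 lid genes, and MitoPark 3 for 7 of 8 lid genes. Over all genes tested, the share above the mean was 50.6% in littermate control 1 and 50.2% in littermate control 3. It was 51.4%, 50.6% and 50.4% in MitoParks 1, 2 and 3.

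These shifts moved the directions. Without littermate control 1, 3 of 15 core and 7 of 24 regulatory genes were higher in MitoParks, and without littermate control 2 it was 10 and 16, against 7 and 10 with all mice. Sums of markers of other cells also differed between mice, and not all in the order of these shifts. The sum of 4 choroid plexus markers, all above 0 in every mouse, ran from 8.02 to 150.9 CPM in littermate controls, with control 2 at the top, and from 14.02 to 36.5 CPM in MitoParks. In control 2, Ttr alone was at 131.5 CPM. The sum of 5 oligodendrocyte markers, also above 0 throughout, ran from 6495 CPM in littermate control 1 to 17262 CPM in control 3, with control 2 at 9196 CPM. In MitoParks it ran from 8960 CPM in MitoPark 1 to 14700 CPM in MitoPark 3. The sums of 5 astrocyte and 5 endothelial markers were lowest in control 2, at 1263 and 94.8 CPM. The sum of 5 neuron markers ran from 3433 CPM in littermate control 1 to 4586 CPM in control 3. In MitoParks it ran from 3250 CPM in MitoPark 3 to 4037 CPM in MitoPark 2. Control 1 had the lowest sums of 5 microglia and 5 red cell markers, 132 and 108 CPM. MitoPark 3 had the highest of both, 174 and 240 CPM. The part of any of these sums in the shifts was not tested.

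**Figure D3:**
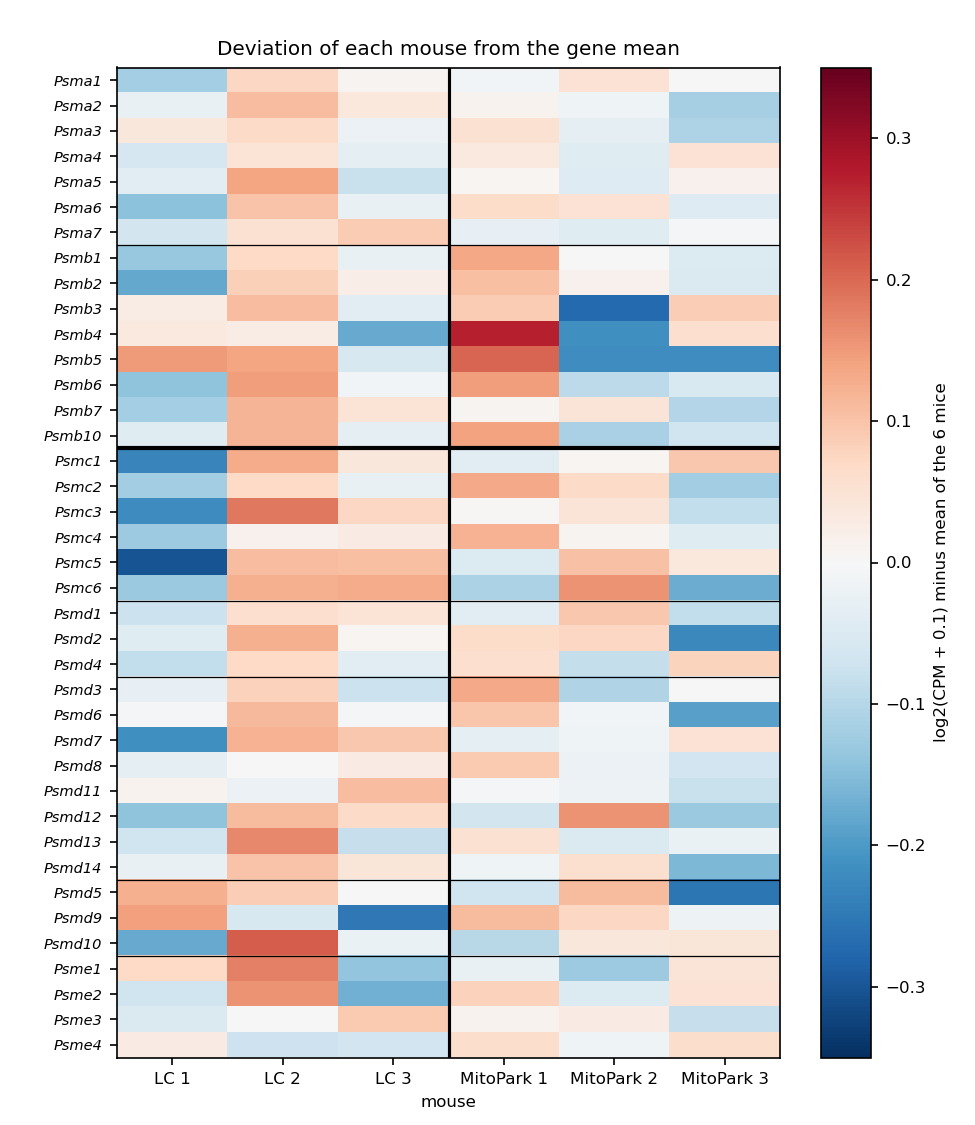
Deviation of each mouse from the mean of the 6 mice on the log2(CPM + 0.1) scale, for the 39 members in rows, with the core above the thick line and thin lines between roles. The column of littermate control 2 (LC 2) is red for all 15 core genes, littermate control 1 is blue for the 6 base ATPases, and no row separates the 3 columns left of the vertical line from the 3 on the right.

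The genes were also compared by what lies before their start. Proteasome genes are known to respond as a set to the transcription factor Nfe2l1, which binds antioxidant response elements. RefSeq windows (GRCm38.p6) were at hand for 33 of the 39 members, on 13 chromosomes, and not for Psmb1, Psmb2, Psmb7, Psmc3, Psmd3 and Psmd7. In the 250 bases before the start, the core of this element, TGACNNNGC on either strand, was present for 5 of 33 members (15.2%), for 11.5% of all 27025 genes with a window and for 10.2% of the 32851 windows, some genes having several. They are printed 5′ to 3′ on the strand of the gene because they include 2 of the catalytic subunits and the base chaperone with the highest fold change, with the match in capitals. In Psmc6 and Psmd12 the match is on the other strand and is shown as its reverse complement.

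Psmb5, chr14:54618024-54618052, minus strand: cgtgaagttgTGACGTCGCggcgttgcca
Psmb6, chr11:70525328-70525356, plus strand: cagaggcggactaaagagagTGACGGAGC
Psmc6, chr14:45329587-45329615, plus strand: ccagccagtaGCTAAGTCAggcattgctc
Psmd9, chr5:123228149-123228177, plus strand: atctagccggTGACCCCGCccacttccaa
Psmd12, chr11:107479278-107479306, plus strand: tctGCTGTGTCAcatttgcccccctcaga

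The matches ended 38 bases before the start in Psmb5, right at it in Psmb6, 22 bases before it in Psmd9, and 218 and 238 bases before it in Psmc6 and Psmd12. The log2 fold changes of these 5 genes ran from -0.14 for Psmb5 to 0.10 for Psmd9, as wide as those of all members. Nfe2l1 itself measured 377, 374 and 400 CPM in littermate controls and 369, 404 and 338 CPM in MitoParks, a log2 fold change of -0.05 (95% interval -0.30 to 0.20).

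Of the 7 motifs searched, the letters CCGGAAG, bound by factors of the ETS family, were held by 11 of 33 members (33.3%), by 7.83% of all genes and by 6.91% of all windows. All genes with a window include many outside the level range of the members, and no motif share was computed for that range. The letters stood before 10 of the 21 regulatory genes with a window and before 1 of the 12 core genes. That gene was Psma6, with the match before the more downstream of its listed starts. This contrast is that of 1 motif among the 7 and was not tested. The 5 matches nearest to a start, 4 to 21 bases before it, all lie on the other strand and read CTTCCGG on the strand of the gene. They are shown for the shared letters, in capitals, and that of Psmc2 lies before the more downstream of its listed starts.

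Psmc1, chr12:100110163-100110191, plus strand: tggtggatgcaCTTCCGGcggtggcgatt
Psmc2, chr5:21786712-21786740, plus strand: gcgcggagctaCTTCCGGtggggaagaga
Psmd2, chr16:20651615-20651643, plus strand: tccgcagggcgCTTCCGGtctggaggaca
Psmd11, chr11:80428586-80428614, plus strand: aggaacgcgagggcgggtCTTCCGGgtgt
Psmd12, chr11:107479499-107479527, plus strand: atgagcgggcgaCTTCCGGtgcgagtgac

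CCAAT was held by 12 of 33 members (36.4%), by 37.5% of all genes and by 33.8% of all windows. The palindrome of the nuclear respiratory factor Nrf1 was held by 6 members (18.2%) and 4.23% of all genes (3.74% of windows). This factor is not Nfe2l1, whose element was searched separately, as given above. The YY1 site was held by 2 members (6.06%) and 1.99% of all genes (1.71% of windows). GAANNTTC was held by Psmb5 (3.03% of members), 7.73% of all genes and 6.69% of windows, and TGACGTCA by 0 members, 1.77% of all genes and 1.55% of windows. All were searched on both strands of the same windows. The matches describe letters, and no binding was measured.

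Among the genes that build and serve the proteasome, the first list holds the remaining subunits, the assembly factors and the inhibitor. Of 10 tested, 3 had log2 fold changes above 0 and 7 below, and 1 had an unadjusted p below 0.05. This was Psmg3, a chaperone that helps assemble the alpha ring. It was at 8.35, 10.1 and 7.14 CPM in littermate controls (counts of 75, 106 and 73) and at 5.85, 5.76 and 5.78 CPM in MitoParks (counts of 48, 57 and 51). Every MitoPark was below every littermate control, as for 2.28% of all genes tested. The log2 fold change was -0.55 (SE 0.20, 95% interval -1.01 to -0.10), just short of 1.5-fold, with an unadjusted p = 0.0211 in edgeR's quasi-likelihood test and, after Benjamini-Hochberg adjustment, an adjusted p of 0.999. An unadjusted p below 0.05 with a lower level in MitoParks was reached by 0.446% of all genes. Without littermate control 2 the log2 fold change was -0.41 (unadjusted p = 0.0962).

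**Figure D4:**
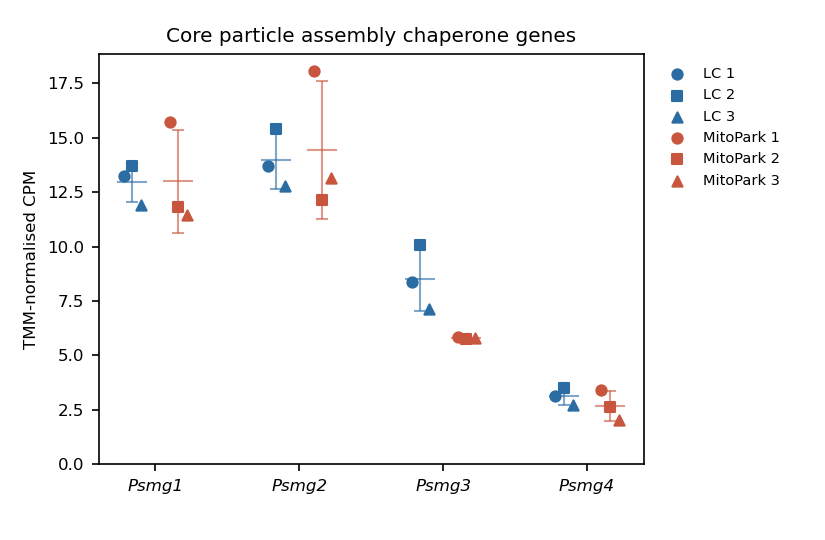
TMM-normalised CPM of the core particle assembly chaperone genes Psmg1 to Psmg4 in each mouse, with the mean and SD of the 3 littermate controls (blue) and 3 MitoParks (red). For Psmg3 the MitoParks sit between 5.76 and 5.85 CPM, below the lowest littermate control at 7.14 CPM, while the groups overlap for the other 3 genes.

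The remaining genes of this list had unadjusted p-values above the threshold. Pomp, which guides the maturation of the core, was at 89.6 ± 12.5 CPM in littermate controls and 86.3 ± 3.01 CPM in MitoParks (SD, n = 3). Adrm1, a ubiquitin receptor of the base, was at 58.7 ± 2.29 and 56.1 ± 5.29 CPM. Shfm1, the older symbol of the small lid subunit gene Sem1, was at 39.4 ± 6.29 and 37.5 ± 3.94 CPM, and Psmf1, an inhibitor of the core, at 36.7 ± 2.49 and 36.6 ± 0.643 CPM. The log2 fold changes of these 4 genes were -0.06, -0.07, -0.07 and -0.01.

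The next list held proteasome deubiquitinases, which trim ubiquitin chains, and shuttles, which bring tagged proteins to the particle. It also included the ubiquitin ligases Ube3a and Ube3c, and Vcp and Zfand5. Of its 12 tested genes, 2 were above 0 (Uchl5 and Ube3a) and 10 below. The median log2 fold change was -0.06 against -0.005 over all genes tested. None had an unadjusted p below 0.05, and the smallest was 0.312 for Ubqln1, at 271 ± 13.4 CPM in littermate controls and 249 ± 26.4 CPM in MitoParks (SD, n = 3). Of 8 transcription regulators of proteasome genes, 3 were above 0 and 5 below, the smallest unadjusted p being 0.499 for Mafg. Nfe2l2, the regulator of the oxidative stress response, was at 18.7, 24.5 and 30.0 CPM and at 18.6, 28.9 and 28.0 CPM, and so spread as widely within each group.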

How the data were processed

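Per the labels and the paper's methods, the authors mapped reads to UCSC mouse transcripts with Bowtie2 2.1.0 and estimated each gene's reads with RSEM 1.2.15. They deposited these expected counts without normalization, as 1 table with 1 column per mouse. The submitters' notes list the build hg38 although the symbols are mouse, so no coordinates of the table are given. Here the expected counts were rounded. A gene was tested where either group averaged more than 1 CPM. The quasi-likelihood model of edgeR 4.0.16 (R 4.3.3) was fitted to the groups with TMM normalization, with Benjamini-Hochberg adjustment over all 14568 genes. Intervals are 95% intervals of that fit. P-values set the difference between the groups against a spread between mice that the fit estimates with the help of all genes. The procedure was tested on simulated counts. At these depths 3 counts are 0.285 to 0.369 CPM. Animals were not stated to be pooled.

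The members and gene lists were chosen with earlier results of these data known. Each member is given by name or within the range of its role. Full statistics went to the 3 smallest p of each particle and to genes picked for their role. Levels per kilobase use the longest APPRIS principal transcript of GENCODE M21, or else the longest coding one. Motifs were searched in RefSeq windows. Alternatives were RLE and total count normalization, no filter, DESeq2 1.42.0, limma-voom (limma 3.58.1), a block by replicate number and leaving out 1 mouse at a time. Python 3.11.15, pandas 2.3.3, numpy 2.4.6 and matplotlib 3.10.9 made tables and plots. A list of ubiquitin genes is not reported here.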

Additional observations from a re-analysis of the deposited data

How the results depend on the processing

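The counts of members with an unadjusted p below 0.05, past both cutoffs and with an adjusted p below 0.05 were 0 under each of the alternatives run, where all genes with an unadjusted p below 0.05 numbered 96 (DESeq2) to 323 (replicate block) with all mice. The median log2 fold change with 1 mouse left out ran from -0.047 to 0.051 for the core and from -0.059 to 0.054 for the regulatory genes, and the number higher in MitoParks from 3 to 10 and from 7 to 16. Whether mice with the same replicate number shared a litter or a batch is not given. Deviations from the group means correlated at 0.307, -0.074 and 0.244 for numbers 1, 2 and 3, which cannot decide it. The fit with the replicate block gave medians of -0.016 and -0.014 and 0 members with an unadjusted p below 0.05, and changed no call among the members and the 10 other genes it was run for. Over all genes tested, that fit left 1 gene with an adjusted p below 0.05 (edgeR), against 0 without the block. Fold changes of Psmb6 (-0.00105, no filter), Psmd7 (0.0084 with total counts, 0.00031 with limma-voom) and Psmf1 (0.0074 with total counts) changed sign close to 0. With 1 mouse left out, the sign changed for the core genes Psma1 (-0.022 to 0.068), Psma5 (-0.061 to 0.051), Psma6 (-0.0088 to 0.11), Psmb2 (-0.026 to 0.10), Psmb3 (-0.12 to 0.062), Psmb4 (-0.028 to 0.21), Psmb6 (-0.066 to 0.078), Psmb7 (-0.092 to 0.0199) and Psmb10 (-0.10 to 0.0297), for the regulatory genes Psmc1 (-0.0597 to 0.11), Psmc3 (-0.14 to 0.055), Psmc5 (-0.0696 to 0.12), Psmd1 (-0.065 to 0.019), Psmd2 (-0.10 to 0.037), Psmd3 (-0.036 to 0.081), Psmd6 (-0.12 to 0.0101), Psmd7 (-0.10 to 0.054), Psmd8 (-0.034 to 0.037), Psmd10 (-0.10 to 0.10), Psmd12 (-0.11 to 0.033), Psmd13 (-0.062 to 0.069), Psme2 (-0.0199 to 0.15) and Psme3 (-0.054 to 0.013), and for Nfe2l1 (-0.11 to 0.012), Nfe2l2 (-0.11 to 0.23), Adrm1 (-0.13 to 0.0031), Shfm1 (-0.17 to 0.062), Pomp (-0.16 to 0.032), Psmf1 (-0.045 to 0.051) and Psmb9 (-0.14 to 0.53). None of these genes had an unadjusted p below 0.05 with all mice. Psmg3 stayed between -0.67 and -0.41, and lost its unadjusted p below 0.05 without littermate control 2. The cause was not tested. Levels per kilobase depend on the transcript length chosen. With the median coding transcript, Psmd2 would be at 344 CPM per kilobase where the principal one gave 76.5. Lower counts limit Psmb8 and Psmb9, whose intervals do not exclude 1.5-fold.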
